A study of Homo sapiens with 2 samples.

Results

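The tripartite motif (TRIM) genes were examined in A549, an epithelial line that derives from a human lung carcinoma. Per the treatment protocol, cells were kept for 12 h without TGF-β (control) or in its presence at 1 ng/ml. There was 1 Affymetrix array per condition, so no p-value or error between cultures can be given, and every fold below is a ratio of 2 signals. The members were all genes whose symbol is TRIM followed only by a number and to which the platform annotation assigns at least 1 probe set alone, 55 genes with 128 probe sets among 19775 genes in all. Each gene was represented by its brightest probe set, and 43 genes had a mean signal of at least 50, while 12 were dimmer and are marked as dim. RefSeq holds 67 such symbols, and the remaining 12 (TRIM23, TRIM34, TRIM39, TRIM43, TRIM48, TRIM49, TRIM60, TRIM64, TRIM73, TRIM74, TRIM75 and TRIM77) were not analysed here.

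TRIM proteins carry a RING domain, 1 or more B-boxes and a coiled coil, and most act as ubiquitin ligases: the RING recruits a ubiquitin-conjugating (E2) enzyme, and the C-terminal domain, which differs between classes, selects the substrate. Some members are known as restriction factors or regulators of innate immunity and are induced by interferon, others bind microtubules and work in neurons or muscle, and those with a PHD finger and bromodomain act on chromatin. TRIM33, one of the chromatin members, is known to bind activated Smad2 and Smad3 and to ubiquitinate Smad4, which places the family next to the TGF-β pathway.

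Signals are MAS5 intensities on a linear scale. The background was taken as the highest signal among 27 probe sets for Bacillus subtilis transcripts, which was 45.8 for the control and 56.6 for the TGF-β sample. If 1 signal of a pair did not exceed that level, the fold is a lower bound, taken against the background and written as at least that ratio. The epithelial markers EPCAM, CDH1, KRT8, KRT18 and KRT19 were all above background on both arrays. EPCAM (2176 and 1616), CDH1 (1952 and 846) and KRT19 (1492 and 991) were lower with TGF-β, KRT8 (16817 and 19630.4) and KRT18 (33810.3 and 38248) higher, and the summed signal of this list was 56247 and 61332. The lung lineage factor NKX2-1 was at background on both arrays, and SFTPB, SFTPC and ABCA3 read between 58.9 and 184. None of 5 fibroblast markers was above background on both arrays, and the leukocyte marker PTPRC was at background on both. The fibroblast markers THY1 (82.5 and 21.8) and DCN (47.5 and 46.7) were above background without TGF-β only. The summed signal of the fibroblast list was 176 without TGF-β and 140 with it. The leukocyte markers CD14 and CD3E were above background on both arrays, CD14 going from 190.5 to 63.0 and CD3E from 48.8 to 74.8. The endothelial marker PECAM1, at 56.4 and 65.4, was just above background, and the other 3 were under it. The summed signal of the leukocyte list was 261 without TGF-β and 159 with it, and that of the endothelial list 85.1 and 117. In such bulk RNA of a cell line, fewer cells with a marker and less of its RNA per cell cannot be told apart. The known TGF-β target PMEPA1 was 3.79-fold higher.

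TRIM9 stood out in the family. This ligase is best known from neurons, where it binds the netrin receptor DCC. Its promoter is shown because TRIM9 had the highest ratio of the family. The 250 bases before its start, from RefSeq on GRCh38.p14, lie at chr14:51095106-51095355 on the minus strand and are written 5′ to 3′ in the direction of the gene, with the Smad box CAGAC, on either strand (GTCTG is the same box on the opposite strand), in capitals.
TRIM9: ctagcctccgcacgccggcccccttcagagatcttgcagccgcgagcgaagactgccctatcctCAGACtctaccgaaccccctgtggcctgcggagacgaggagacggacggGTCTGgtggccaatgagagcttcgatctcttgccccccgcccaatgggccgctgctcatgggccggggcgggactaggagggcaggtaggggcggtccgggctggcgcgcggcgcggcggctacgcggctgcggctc
The window held 2 such boxes, which begin 186 and 137 bases before the start, and its G and C content was 70.8%. So short a box is common: 38.0% of 35116 windows of this length before RefSeq genes held at least 1, and so did 17 of 47 windows (36.2%) of the 33 measured TRIM genes that the table covers. A match is only a match of letters.

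Of the 43 measured TRIM genes, 4 were at least 2-fold higher with TGF-β (9.30%), against 3.88% of all 12305 genes measured by the same rule, and 3 were at least 2-fold lower (6.98%), against 2.87%. These counts use the signals as deposited. With signals under background raised to it, 2 were at least 2-fold lower, against 1.66% of all genes, and TRIM42 was no longer among them. At 1.5-fold, 5 were higher (9.08% of all genes were) and 6 lower (8.98% of all genes were). The other 32 differed by less than 1.5-fold. Of the 7 genes past 2-fold, 5 had a mean signal under 200 (TRIM45, TRIM10, TRIM31, TRIM15 and TRIM42). Among 31 TRIM genes whose mean signal reached 200, 2 were at least 2-fold higher (2.75% of all genes as bright were), and none was lower (0.986% of all such genes were). At 1.5-fold, 2 of these 31 were higher (6.85% of all such genes were) and 2 lower (4.79%). In 40 TRIM genes both signals were above background, and of these 4 were at least 2-fold higher (2.94% of all such genes were) and 1 was at least 2-fold lower (1.35%), while at 1.5-fold 5 were higher (8% of all such genes were) and 3 lower (6.57%).

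**Figure D1:**
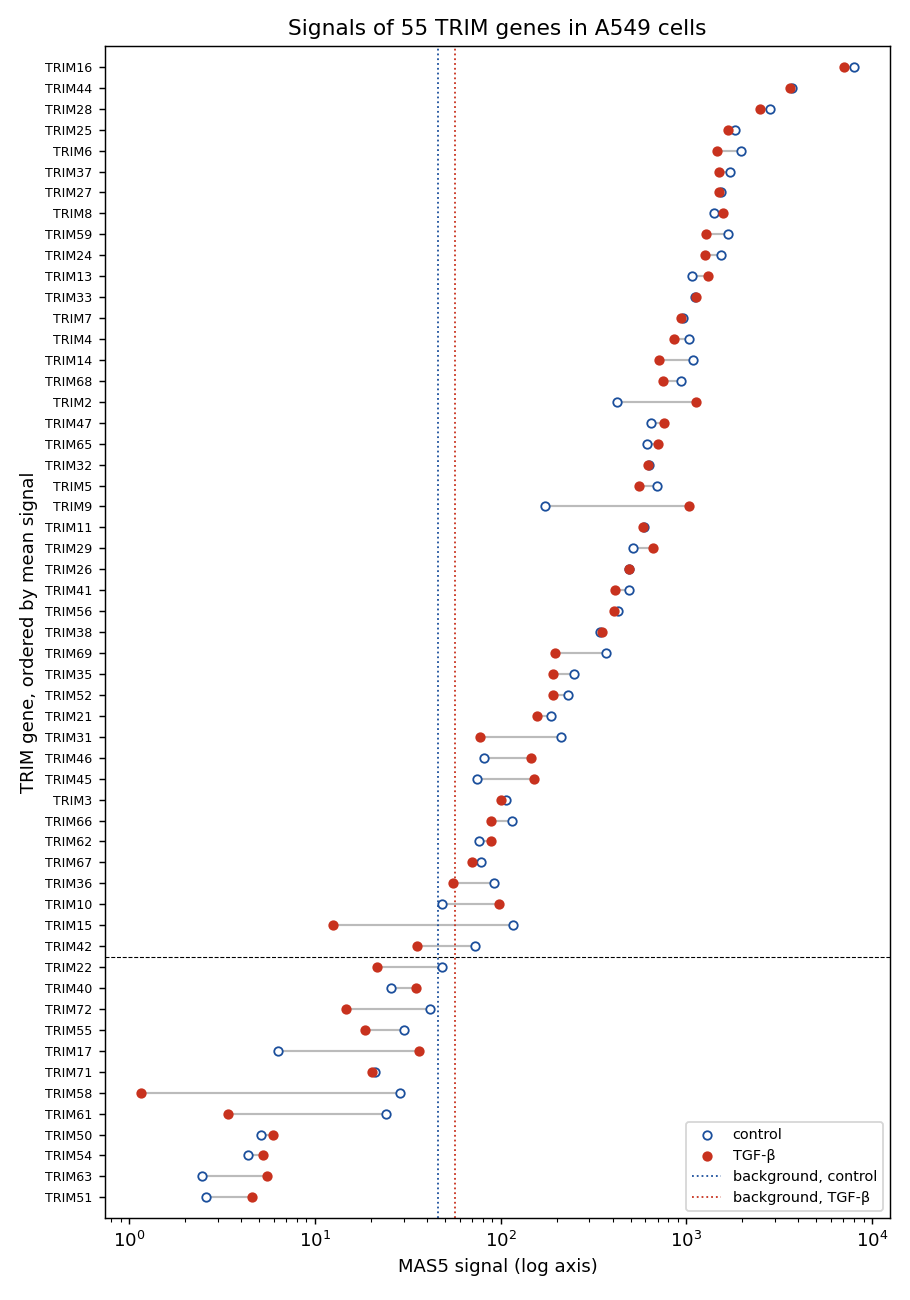
MAS5 intensity (log axis) of each of 55 TRIM genes, ordered by mean signal, with 1 open blue point for the control array, 1 red point for the TGF-β array and a grey bar between them. Background levels (45.8 and 56.6) are dotted and the 12 genes under the dashed line are dim, and the bars of TRIM9, TRIM2, TRIM45, TRIM10 and TRIM31 span at least 2-fold with both points above background.

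TRIM9 gave a signal of 173 in the control and 1027 after TGF-β, 5.93-fold higher, with a log2 fold change of 2.57. Its signal without TGF-β was already well above background. The spread of log2 fold changes over the 500 probe sets nearest in brightness was 0.31, which describes probe sets and says nothing of how cultures vary. The second TRIM9 probe set was at background without TGF-β, read 168 with it, and was at least 3.67-fold higher. TRIM9 ranked 57 of 12305 genes by ratio. The study's own list of altered genes, drawn from these arrays, includes TRIM9, so its direction here is not independent evidence.

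TRIM9 belongs to the class with a COS box, which binds microtubules, followed by a fibronectin repeat and a SPRY domain. All 4 members of this class with a probe set were measured, and they did not move together. TRIM46, which bundles microtubules at the start of the axon, read 80.9 and 146, 1.80-fold higher, and its other probe set was under background on both arrays. TRIM67, the closest relative of TRIM9, read 78.1 and 70.2. TRIM36 read 91.7 without TGF-β and was at background with it, at least 1.62-fold lower, and its 3 other probe sets were under background on both arrays. Taken against background the log2 fold change of TRIM36 was -0.70, where the spread at its brightness was 0.63. The class thus held the highest ratio of the family and a gene that was lower. MID1 and MID2, which share the same domains under other symbols, read 4823 and 4092, and 268 and 242. Of the proteins known to work with TRIM9, the netrin receptor DCC and its ligand NTN1 were at background on both arrays. The actin regulator VASP read 1380 and 1434, the vesicle fusion protein SNAP25 read 1011 and 846, and the ubiquitin ligase subunit BTRC read 446 and 466.

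TRIM2, a ligase with NHL repeats known to act on neurofilament in neurons, had the next highest ratio. Its brightest probe set went from 423 to 1128, 2.67-fold higher, with a log2 fold change of 1.42. A second probe set went from 294 to 718 (2.44-fold) and the third from 100.4 to 162 (1.62-fold). The 3 TRIM2 probe sets above background were thus all higher, and the other 3 were under background on both arrays. All 3 of the brighter ones have names ending in _s_at, the mark of probe sets that can bind several transcripts. The other members with NHL repeats stayed close to their control signals. TRIM3 read 106 and 100.4, TRIM32, known from limb-girdle muscular dystrophy, read 630 and 619, and TRIM71, a regulator of stem cells, was at background on both arrays.

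The remaining 2 genes past 2-fold upwards had low signals, with means of 113 and 72.8, and their probe sets did not share a direction. TRIM45, which carries a filamin repeat, read 74.7 and 151 (2.02-fold), but its second probe set read 86.3 and 85.7. TRIM10, known from red cell development, read 48.3, just above background, and 97.3 (2.01-fold), while another of its probe sets went from 58.7 to background and the remaining 2 were under background on both arrays. Without TGF-β, a probe set that was not higher with TGF-β was the brightest one in both genes. The choice by the mean of both signals therefore rested on the TGF-β signal. The log2 fold change of TRIM10 was 1.01, where the spread at its brightness was 0.63. TRIM37, with a MATH domain, read 1713 and 1492.

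**Figure D2:**
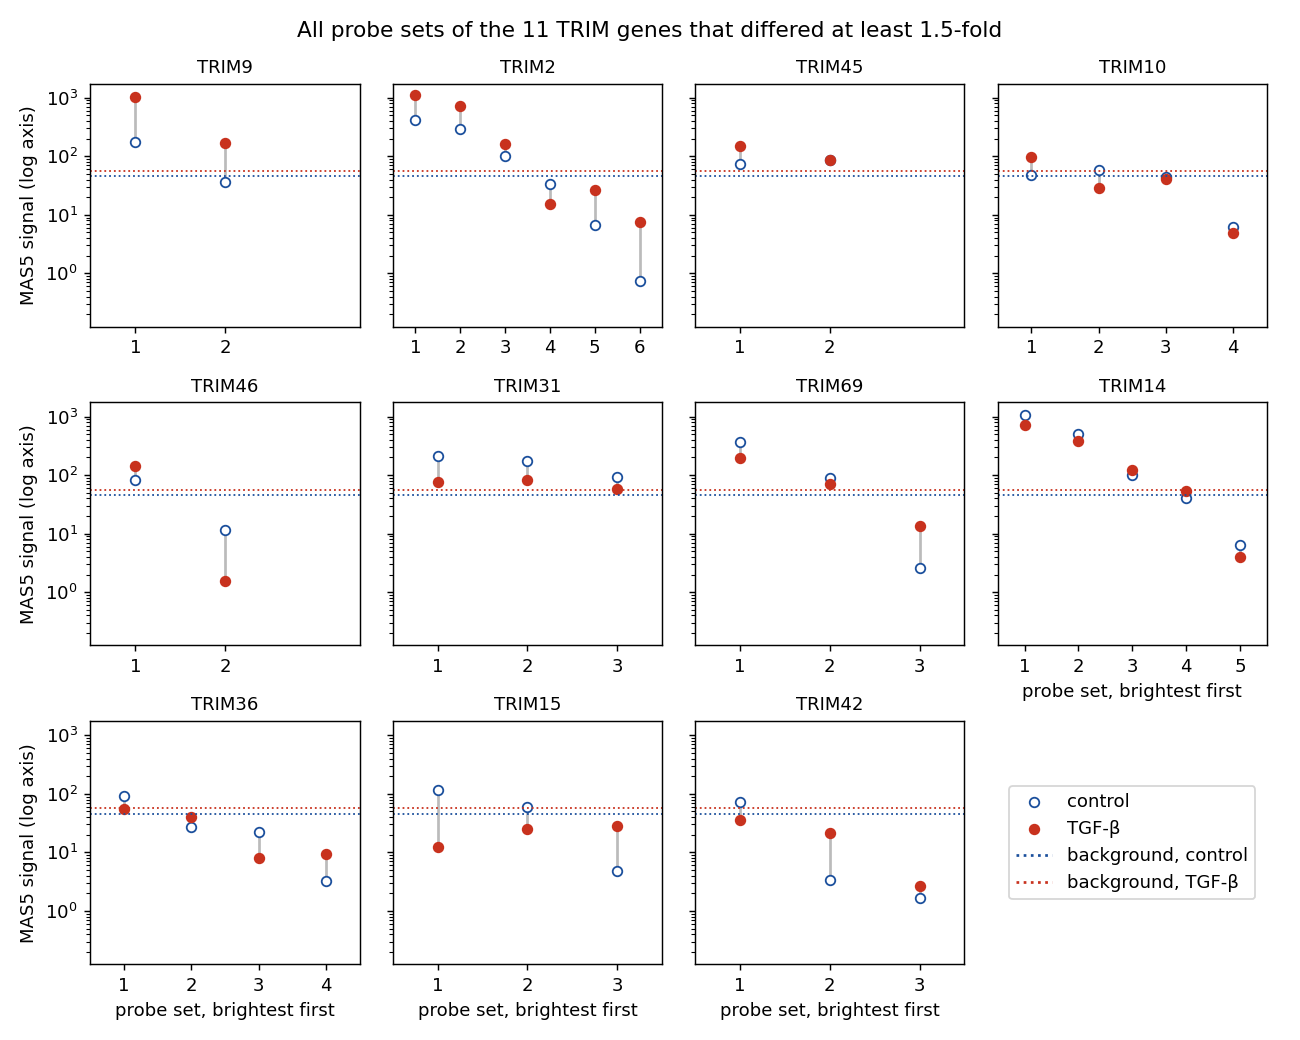
Every probe set of the 11 TRIM genes whose brightest probe set differed at least 1.5-fold, ordered from bright to dim, with its MAS5 intensity (log axis) in the control (open blue) and TGF-β (red) array and the background levels (45.8 and 56.6) dotted. The bright probe sets of TRIM9, TRIM2 and TRIM31 point the same way within each gene, while probe sets of TRIM45 and TRIM10, and the dimmer ones of TRIM14, do not.

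TRIM31 was the TRIM gene with the clearest lower signal. It is a ligase of epithelial cells, known for ubiquitinating the inflammasome receptor NLRP3. Its brightest probe set read 211 without TGF-β and 77.3 after treatment, 2.73-fold lower. Its log2 fold change was -1.45, where the spread at this brightness was 0.47. The other probe sets read 175 and 83.9 (2.09-fold lower) and 93.1 and 56.7 (1.64-fold lower), so all 3 were lower, the last only just above background with TGF-β. All 3 names end in _s_at. Among all 12305 genes TRIM31 had rank 141 from the lowest ratio. The other measured members with no known C-terminal domain differed less. TRIM8, known as a regulator of cytokine signalling, read 1399 and 1578, and TRIM56, an antiviral ligase, read 426 and 406. TRIM52 read 229 and 190.4, while its other probe set was 1.54-fold higher (87.4 and 135), so its direction turned with the probe set.

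TRIM31 lies in a run of TRIM genes on chromosome 6 in the MHC region, in the order TRIM31, TRIM40, TRIM10, TRIM15, TRIM26 and TRIM39 with no other protein-coding gene between them in the RefSeq annotation. The measured genes of this run did not share a direction. TRIM15, known as a focal adhesion protein, read 117 without TGF-β and 12.4 with it, which is under background, so it was at least 2.06-fold lower. Taken against background its log2 fold change was -1.04, where the spread at its brightness was 1.91. A second TRIM15 probe set also went from just above background (59.7) to background, and the third was under background on both arrays. TRIM26 read 488 and 493, TRIM10 is given above, and TRIM40 was dim, at 25.8 and 34.9. TRIM42, the only measured gene with a COS box and no SPRY domain, read 72.6 without TGF-β and was at background with it, at least 1.28-fold lower, so its ratio of 2.06 as deposited is not supported by signal over background. Of the 3 genes past 2-fold downwards, TRIM31 alone had both signals above background.

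TRIM33, TRIM24 and TRIM28, the chromatin members with a PHD finger and a bromodomain, differed little between the arrays. TRIM33 read 1106 without TGF-β and 1129 with it, with a log2 fold change of 0.03. Its 3 probe sets with signals above background gave log2 fold changes from -0.21 to 0.09. TRIM24, a reader of histone marks, read 1527 and 1263 (log2 fold change -0.27), and TRIM28, the corepressor that KRAB zinc finger proteins recruit, read 2815 and 2501 (-0.17). TRIM66, the fourth member, was dimmer at 115 and 88.5. The Smad proteins that TRIM33 binds or modifies were each below 1.5-fold: SMAD2 read 7117 and 4933, SMAD3 2266 and 2553, and SMAD4 1446 and 1284. Of 8 measured partners of TRIM28 in silencing (SETDB1, CBX1, CBX3, CBX5, CHD3, CHD4, HDAC1 and HDAC2), none differed by 1.5-fold, with log2 fold changes from -0.28 to 0.26. These partners and Smad genes had mean signals over 200. Among all genes that bright, 6.85% were at least 1.5-fold higher and 4.79% lower.

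**Figure D3:**
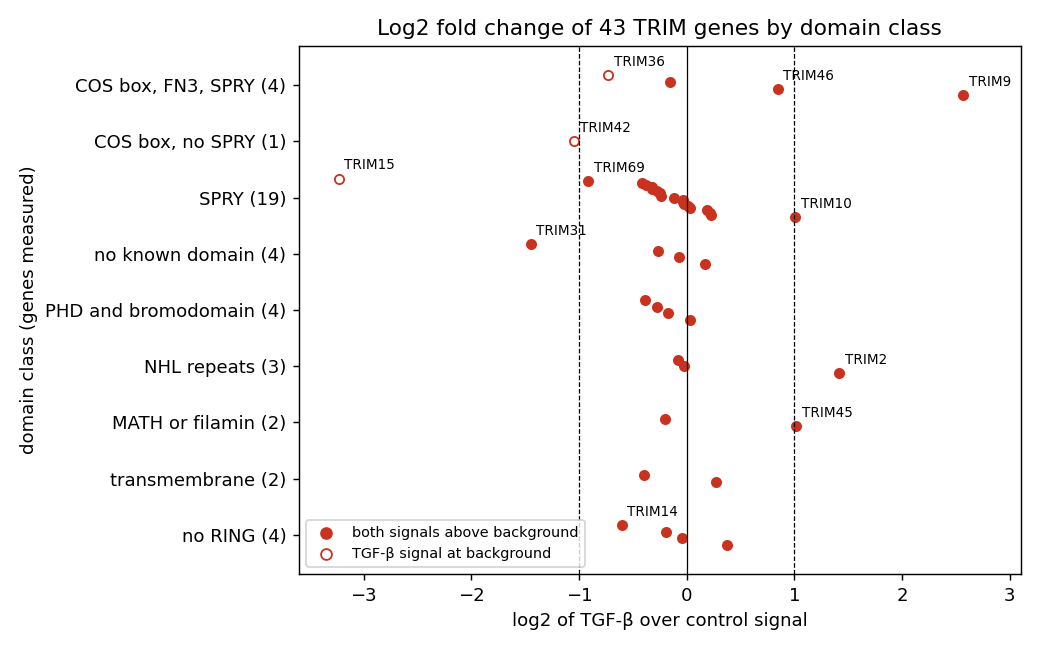
Log2 fold change (TGF-β over control signal) of the 43 measured TRIM genes on the x axis, grouped on the y axis by C-terminal domain class with the number of genes. Each point is 1 gene, open points have a TGF-β signal at background, so that their position is no measured fold, and dashed lines mark 2-fold. TRIM9 lies at 2.57, and the 4 genes with PHD finger and bromodomain lie between -0.38 and 0.03.

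The largest class ends in a SPRY domain, which binds partners directly, and 19 of its genes were measured. In this class 1 gene (TRIM10) was at least 2-fold higher and 1 (TRIM15) at least 2-fold lower, against 3.88% and 2.87% of all genes, and the median log2 fold change was -0.12. Most of the bright members differed little. TRIM27 read 1541 and 1503, TRIM11 594 and 585, and TRIM7 960 and 939. TRIM6, a member next to TRIM5 on chromosome 11, read 1962 and 1468 (log2 fold change -0.42), and TRIM68, a coactivator of the androgen receptor, 937 and 751 (-0.32). TRIM35 (249 and 192) and TRIM41 (493 and 414) were also below their control signals, TRIM47 (645 and 756) and TRIM65 (617 and 703) above theirs. TRIM62 was dimmer, at 76.2 and 88.5. TRIM4 read 1037 and 858 by its brightest probe set, but its other probe sets above background on both arrays were higher with TGF-β (133 and 149.6, 106 and 119.7), so its direction turned with the choice of probe set.

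Within the family, 8 genes known to respond to interferon were listed, and 7 had a probe set. TRIM69, which acts against RNA viruses, had the largest difference of these, from 368 to 196, 1.88-fold lower (log2 fold change -0.91). Its second probe set read 88.7 and 71.1, 1.25-fold lower, and the remaining one was under background on both arrays. TRIM14, an adaptor of antiviral signalling at mitochondria, read 1081 and 712, 1.52-fold lower. A second TRIM14 probe set was 1.27-fold lower, from 496 to 389, but another was 1.25-fold higher, from 99.0 to 124. TRIM5, the retroviral restriction factor, read 693 and 554, TRIM21, the cytosolic antibody receptor, 186 and 158, and TRIM25, which activates RIG-I, 1825 and 1677. TRIM38 read 342 and 350, and TRIM22 was dim, with its TGF-β signal under background. Thus 5 of the 6 measured members were below their control signal, with a median log2 fold change of -0.28, and 2 were at least 1.5-fold lower. Over all 12305 genes, 54.6% lay below 0, 8.98% were at least 1.5-fold lower, and the median was -0.03. The summed signal of the leukocyte list was also lower, through CD14 and not CD3E, as given above, with PTPRC at background on both arrays. The samples were cultures of the A549 line, and a link between that sum and these values was not tested. PML, an interferon-responsive relative of the family, was 2.11-fold lower by its brightest probe set, from 138 to 65.3. However, its next probe sets read 85.6 and 94.5, and 84.0 and 76.5, so no direction can be given for PML.

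The interferon genes are shown with the interferon element, GAAA followed by any 2 bases and again GAAA (TTTC, 2 bases, TTTC on the opposite strand), a core of the site that interferon-activated factors bind. It occurred in 3.02% of the 35116 windows of 250 bases before RefSeq genes, and in 7 of 47 windows (14.9%) of the measured TRIM genes, including the windows of 3 of the 6 measured interferon genes: TRIM14, TRIM69 and TRIM5. The stretches below hold the element in capitals with 15 bases on each side, written 5′ to 3′ in the direction of the gene, from RefSeq on GRCh38.p14. The TRIM14 stretch lies at chr9:98119224-98119263 (minus strand), the TRIM5 stretch at chr11:5685077-5685116 (minus strand) and the TRIM69 stretch at chr15:44736451-44736490 (plus strand).
TRIM14: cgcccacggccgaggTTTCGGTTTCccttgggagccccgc
TRIM5: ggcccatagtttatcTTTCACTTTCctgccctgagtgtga
TRIM69: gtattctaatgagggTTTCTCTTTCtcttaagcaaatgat
The element begins 26 bases before the start of TRIM14, 27 before that of TRIM5 and 62 before that of TRIM69. These 3 genes had log2 fold changes of -0.60, -0.32 and -0.91. TRIM21, TRIM25 and TRIM38, with no match in their windows, had log2 fold changes of -0.24, -0.12 and 0.03. Outside the interferon list, the measured TRIM genes with a match were TRIM2, TRIM16, TRIM26 and TRIM44, of which TRIM2 was higher and the other 3 were within 1.5-fold. The spreads that follow are for the 6 measured interferon genes. The spread at their brightness was 0.31 for TRIM14, 0.28 for TRIM5 and 0.41 for TRIM69. For TRIM21, TRIM25 and TRIM38 it was 0.46, 0.28 and 0.31. The element was searched after the signals had been seen, and the values are a description. A link between the element and the values was not tested.

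Among members that lack the RING, and so the usual ligase activity, TRIM16 had the brightest probe set of the family, at 8006 without TGF-β and 7009 with it. TRIM16L, a near copy of TRIM16, may share its signal. TRIM44 read 3718 and 3618, and its second probe set 1596 and 1537. TRIM29, known from squamous epithelium, read 513 and 664 (log2 fold change 0.37). A second TRIM29 probe set was at background without TGF-β and read 71.5 with it, at least 1.56-fold higher, and the third was under background on both arrays. TRIM13, a ligase anchored in the ER membrane, read 1076 and 1302, and TRIM59, the other member with a transmembrane segment, 1669 and 1272. By their brightest probe sets, TRIM13, TRIM59 and TRIM29 were each within 1.5-fold.

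**Figure D4:**
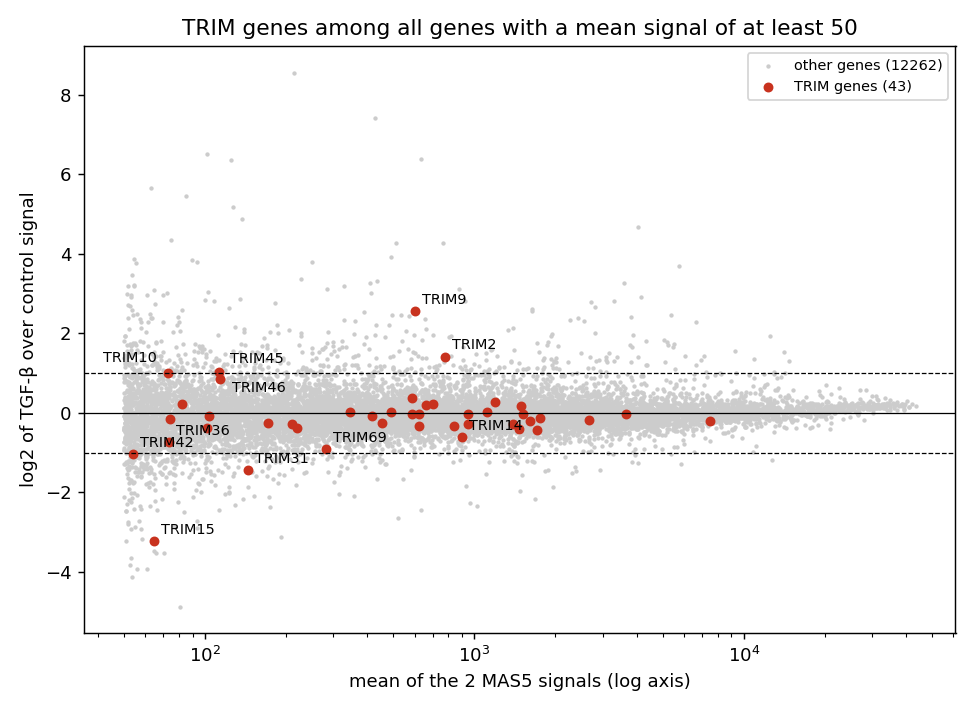
Log2 fold change (TGF-β over control, y axis) against the mean of both signals (x axis, log scale) for 43 TRIM genes (red) and the other measured genes (grey). Each point is 1 gene, dashed lines mark 2-fold, and TRIM genes that differed at least 1.5-fold are named. TRIM9 and TRIM2 are the named genes that lie past 2-fold at a mean signal over 200, and the low position of TRIM15, at a mean signal of 64.6, is no measured fold because its TGF-β signal was under background.

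Over the family the typical signal was slightly below its control. The median log2 fold change of the 43 genes was -0.12, against -0.03 for all 12305 genes, and 29 of 43 genes (67.4%) lay below 0, against 54.6% of all genes. Setting both arrays to equal medians moved all genes alike: 24 of 43 (55.8%) then lay below 0, against 48.2% of all genes, and the medians were -0.07 and 0.02. The spread of the log2 fold changes was 0.30 over TRIM genes and 0.34 over all genes. Of 24 TRIM genes with a mean signal of at least 500, 21 (87.5%) differed by less than 1.5-fold, against 90.7% of the 6904 genes as bright, and the exceptions were TRIM9, TRIM2 and TRIM14.

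In 19 TRIM genes, 2 or more probe sets had both signals above background. In 11 of them all such probe sets lay on the same side of 0, and in 8 they did not. The probe sets of TRIM45 and TRIM8 were more than 1 apart in log2 fold change. For TRIM8 the 2 bright probe sets had log2 fold changes of 0.17 and 0.32, and the dim ones 0.94 and -0.09.

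The 12 dim genes include TRIM54, TRIM55 and TRIM63, the ligases of striated muscle, TRIM72, which repairs muscle membrane, TRIM58, known from late red cells, and TRIM17, TRIM22, TRIM40, TRIM50, TRIM51, TRIM61 and TRIM71. TRIM22 was the only one with a signal above background on either array, 48.3 without TGF-β. Their ratios, such as 6.29 to 36.5 for TRIM17 and 28.8 to 1.15 for TRIM58, lie within the background and give no fold. Next to the mark at 50, TRIM42 with a mean signal of 53.9 was kept, and TRIM22, at 34.9, was not.

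Those enzymes that hand ubiquitin to RING ligases and were measured here stayed close to their control signals. Of 14 listed E1 and E2 enzymes 9 were measured, none differed by 1.5-fold, and the log2 fold changes ran from -0.09 to 0.24. All had mean signals over 500, and 90.7% of all genes that bright differed by less than 1.5-fold. The E1 enzyme UBA1 read 1461 and 1722, the E2 enzyme UBE2N 10529.9 and 11355, and the E2 enzyme UBE2E1, with the brightest probe set of the list, 11184 and 11953. Among 7 measured relatives under other symbols, PML alone passed 2-fold by its brightest probe set, with the conflict given above. TRIML2 was 1.64-fold lower (430.4 and 262) by its single probe set, and CMYA5, a muscle protein, was 1.74-fold higher (58.6 and 102). Of all 12305 genes, 3.88% were at least 2-fold higher and 2.87% lower. At 1.5-fold these shares were 9.08% and 8.98%.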

How the data were processed

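Per the labels, A549 cells were kept over 12 h without TGF-β or with it at 1 ng/ml, and biotin-labelled RNA of each culture was hybridized to 1 Affymetrix array. The values deposited by the authors are MAS5 intensities on a linear scale, 54675 per array. The submitters' processing notes name MAS5 alone; its version and settings were not found in the labels or methods. The mean without the 2% highest and lowest signals was 500.08 on both arrays, so the arrays had been scaled to the same target, and the signals were used as deposited.

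Without control spots 54613 probe sets remained. The platform annotation gave 41091 of them 1 symbol and 1801 several, and did not list 11721; the last 2 kinds were omitted. For 41037 of the 41091, the symbol was updated through the gene identifier in RefSeq (GRCh38.p14). A gene was represented by the probe set with the highest mean of its 2 signals, and genes under 50 were left out of counts. With 1 array per condition no test was possible, so 2-fold and 1.5-fold are rules of size, set beside the same shares over all genes. The spread was estimated from the 500 probe sets nearest in mean log2 signal, among those with a mean signal of at least 50. It is their median absolute deviation in log2 fold change, from signals as deposited, multiplied by 1.4826. MAS5 subtracts mismatch probes, which makes ratios of dim signals unstable: 18 of the 27 Bacillus subtilis probe sets differed by more than 2-fold between the arrays. Precision is limited by the number of arrays.

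The TRIM genes, the domain classes and the companion lists were chosen with earlier results of these data known. Genes to be named were every TRIM gene past 1.5-fold, the bright members, the chromatin members, TRIM9 with its class, at least 1 member of each class, and companion genes past 2-fold or brightest; other genes named were chosen after their values were seen. Listed genes without a probe set of their own are not reported here. The alternatives were no filter on dim signals, filters at 100 and 200, 50 added to every signal, a floor at background, loess (span 0.3) or quantile normalization, equal medians, and 3 other choices of probe set. A filter on both signals above background was chosen after seeing the data. The calling was tested on simulated data with the same noise at every brightness. That test does not cover the larger noise of dim signals. Promoter windows are the 250 bases before gene starts in RefSeq. Scripts ran in Python 3.11.15 with matplotlib 3.10.9, statsmodels 0.14.6, scipy 1.17.1, pandas 2.3.3 and numpy 2.4.6.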

Additional observations from a re-analysis of the deposited data

How the results depend on the processing

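Variation between cultures is not covered by any of the alternatives. There were 55 TRIM genes without the filter, 37 and 31 at means of 100 and 200, and 43 with 50 added or by largest change. Without shared-target probe sets 33 remained, and 40 with both signals above background. The 4 TRIM genes at least 2-fold higher were 2 with a mean signal of at least 200, 2 with 50 added to every signal and 2 without shared-target probe sets. Over all genes these shares were, in that order, 2.75%, 2.39% and 4.20%. The 3 at least 2-fold lower were 7 without the filter, 1 with a mean signal of at least 100, 0 with one of at least 200, and 1 with both signals above background. Over all genes these shares were 12.1%, 1.58%, 0.986% and 1.35%. The 5 at least 1.5-fold higher were 8 without the filter, 8 by the probe set of largest change, 2 with a mean signal of at least 200, 3 with 50 added and 3 without shared-target probe sets. Over all genes these shares were 17.1%, 12.8%, 6.85%, 6.66% and 9.50%. The 6 at least 1.5-fold lower were 11 without the filter, 3 with a mean signal of at least 100, 2 with one of at least 200, 3 with 50 added and 3 with both signals above background. Over all genes these shares were 19.2%, 6.38%, 4.79%, 5.28% and 6.57%. Filters and the added 50 act on dim signals by construction, and the rule of largest change favours large changes by construction. Without shared-target probe sets, TRIM2 and TRIM10 left the counts of higher genes because they had no value, as given below. No other cause was tested. The median log2 fold change of the family stayed between -0.18 and -0.07. TRIM9 passed 2-fold upwards in all 12 alternatives (log2 fold change 2.27 to 2.62), TRIM2 in all 11 that gave a value (1.29 to 1.46), and TRIM31 downwards in all 10 (-1.45 to -1.03). The filters, the floor and the rule of largest change left the values of TRIM9, TRIM2 and TRIM31 as they were. These settings used the same probe set and signals, so they are no further support. Without shared-target probe sets TRIM2, TRIM10 and TRIM31 had no value, because each of their probe sets that reached 50 is marked as shared. The log2 fold change was 0.50 for TRIM45 by the median over probe sets, and -1.04 for TRIM15 and -0.36 for TRIM42 with a floor at background. No TRIM gene past 1.5-fold changed sign in any alternative. However, no alternative took the value of TRIM10 or TRIM14 from its opposing probe set alone, so their conflict was not examined this way. TRIM4 turned to 0.17 and 0.18 and TRIM52 to 0.18 and 0.62 under other choices of probe set. No paired analysis was possible because each condition had 1 array and the result comes from no test.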

Other observations

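Transcripts with TRIM names that are not TRIM genes by symbol were read on the same arrays. TRIM16L, a near copy of TRIM16, read 178 without TGF-β and 158 with it, so its ratio of 0.887 was close to that of TRIM16 (0.875). TRIM52-AS1, the antisense RNA of TRIM52, read 450.4 and 336, a ratio of 0.745, while the probe sets of TRIM52 itself had ratios of 0.830 and 1.54. TRIM67-AS1 read 74.9 without TGF-β and was at background with it.

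The window before TRIM31 held neither the Smad box nor the interferon element, and it held no match to the AP-1 motif or the E-box, all searched on both strands. Among the 47 windows of measured TRIM genes, 5 held the AP-1 motif TGANTCA (10.6%, against 6.57% of all windows). The E-box CACCTG was in 7 of these windows (14.9%, against 17.5%).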
